A study of Mus musculus with 9 samples.

Results

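The genes of mitosis and chromosome segregation described here are 43 genes whose products start mitosis, condense and attach the chromosomes, build the spindle and divide the cell. They were chosen by symbol, for their known roles, with earlier results of these data known, and all 43 were found among the 47937 gene identifiers of the count table. RNA was measured in 9 libraries of mouse CD4+ T cells carrying CD62L, a surface marker of naive T cells, which were isolated on magnetic beads from the spleens of C57BL/6 mice. TEPP-46 cells (3 libraries) were incubated for 15 min with TEPP-46, a small molecule that activates the glycolytic enzyme pyruvate kinase M2, and were then activated on plates coated with antibodies against CD3 and CD28. Control cells (3 libraries) received the solvent DMSO in place of TEPP-46 and the same antibodies. Resting cells (3 libraries) are the isolated cells that the labels call resting, and the age of the mice is not stated. The labels give 50 to 100 µM TEPP-46 for the treatment as a whole, not per library. The sources used here do not say how long the cells were activated or whether resting cells were kept in culture. The libraries of each group are numbered 1, 4 and 5. No label ties them to separate animals, and the p-values therefore reflect the spread between these libraries, some or all of which may be technical.

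Naive T cells rest outside the cell cycle, and signals through the T cell receptor and CD28 bring them back into it. Mitosis is driven by Cdk1 bound to A- and B-type cyclins, and the cell leaves mitosis when the anaphase-promoting complex (APC/C) marks cyclin B and securin for destruction. In cells that have left the cell cycle, the DREAM complex represses many of these genes from a short promoter element, the cell cycle homology region (CHR). In cycling cells the MuvB core of that complex joins B-Myb and FoxM1 at the same element, and they activate the genes in G2 and mitosis together with NF-Y, which binds CCAAT boxes nearby.

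The libraries held 2397304 (TEPP-46 replicate 4) to 5030643 counts. Levels are given in CPM, counts per 1000000 after TMM correction of the library sizes, and are shares of a library rather than amounts per cell. In bulk RNA of this kind, fewer dividing cells and less of a transcript in each cell cannot be told apart. The TEPP-46 libraries stood further apart than those of the other groups. The median SD of log2 CPM over all tested genes was 0.52 among TEPP-46, 0.20 among control and 0.31 among resting libraries, and over the 43 mitosis genes it was 1.68, 0.19 and 0.25 in the same order of groups. Across genes, TEPP-46 replicate 4 correlated at 0.818 with TEPP-46 replicate 1, and resting replicate 1 at 0.938 and 0.937 with resting replicates 4 and 5. Summed markers of CD4 T cells (Cd3e, Cd3d, Cd3g, Cd4, Trac and Thy1) reached 3795 to 4976 CPM in TEPP-46, 2062 to 2935 CPM in control and 2266 to 4634 CPM in resting libraries, so the labelled cell type had its markers in every library.

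The promoter sequences show what the genes have in common apart from their roles. RefSeq promoter windows on GRCm38.p6, running from 250 bases before to 50 bases after the transcription start, were matched by symbol for 35 of the 43 genes. The letters searched were CCAAT or its complement ATTGG for the CCAAT box, and TTTGAA, its complement TTCAAA, or the palindrome TTCGAA for the CHR. Both strands were read, and no motif of one kind contains one of the other. The CHR was found in 29 of 35 genes (82.9%), against 21.7% of the 27025 genes with a window in the table. The CCAAT box was found in 27 genes (77.1%), against 41.1% of all genes, and both stood in 25 genes (71.4%), against 8.61%.

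The 6 windows printed below run from 150 bases before to 30 bases into the transcript, 5′ to 3′ on the strand of the gene, with every CCAAT box and CHR in capitals. Cdk1 (chr10:69352883-69353062, minus strand), Ccnb2 (chr9:70421525-70421704, minus strand), Cenpf (chr1:189688057-189688236, minus strand) and Ttk (chr9:83834539-83834718, plus strand) are shown as genes with CCAAT boxes before a CHR close to the start. Bub3 (chr7:131560220-131560399, plus strand) is shown because its window holds both motifs although it did not pass the test in any comparison with all 9 libraries fitted. Birc5 (chr11:117849087-117849266, plus strand) is shown because neither motif is in its window although its RNA rose on activation.
Cdk1: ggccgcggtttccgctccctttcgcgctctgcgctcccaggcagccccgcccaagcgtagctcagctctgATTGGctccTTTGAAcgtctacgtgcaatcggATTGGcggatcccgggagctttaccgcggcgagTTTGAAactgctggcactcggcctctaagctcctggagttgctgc
Ccnb2: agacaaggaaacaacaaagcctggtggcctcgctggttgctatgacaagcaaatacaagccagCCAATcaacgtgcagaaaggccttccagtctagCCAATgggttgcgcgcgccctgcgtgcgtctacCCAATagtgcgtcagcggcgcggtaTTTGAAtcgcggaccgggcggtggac
Cenpf: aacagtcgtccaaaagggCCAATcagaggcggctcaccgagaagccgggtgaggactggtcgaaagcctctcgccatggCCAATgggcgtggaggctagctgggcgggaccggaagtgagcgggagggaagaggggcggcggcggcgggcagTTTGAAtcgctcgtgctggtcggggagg
Ttk: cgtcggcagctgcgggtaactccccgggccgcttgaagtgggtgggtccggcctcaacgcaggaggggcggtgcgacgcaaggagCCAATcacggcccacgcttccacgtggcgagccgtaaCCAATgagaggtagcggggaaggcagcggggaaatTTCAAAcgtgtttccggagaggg
Bub3: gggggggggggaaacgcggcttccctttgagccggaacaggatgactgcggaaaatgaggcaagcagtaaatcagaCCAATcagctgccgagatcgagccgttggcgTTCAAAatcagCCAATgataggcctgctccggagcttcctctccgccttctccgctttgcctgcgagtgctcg
Birc5: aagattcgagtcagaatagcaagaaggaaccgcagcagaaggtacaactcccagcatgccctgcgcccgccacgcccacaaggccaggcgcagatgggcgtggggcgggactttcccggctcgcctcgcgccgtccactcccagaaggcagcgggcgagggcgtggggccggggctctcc

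The motifs were not spread evenly along the windows. A CHR began within the first 50 bases from the start in 17 genes (48.6%), against 2.4% of all genes, and in the 50 bases before the start in 9 genes (25.7%), against 3.03%. A CCAAT box began in the 50 bases before the start in 17 genes (48.6%), against 9.44% of all genes, and 51 to 100 bases before it in 16 genes (45.7%), against 13%. In Ttk the CHR began 7 bases after the start, with CCAAT boxes 28 and 65 bases before it. In Bub3 the CHR lay 43 bases before the start, between CCAAT boxes that began 74 and 32 bases before it. Neither motif was in the windows of Birc5, Mad2l1, Nuf2 and Nusap1, which says only that these letters are not there.

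**Figure D1:**
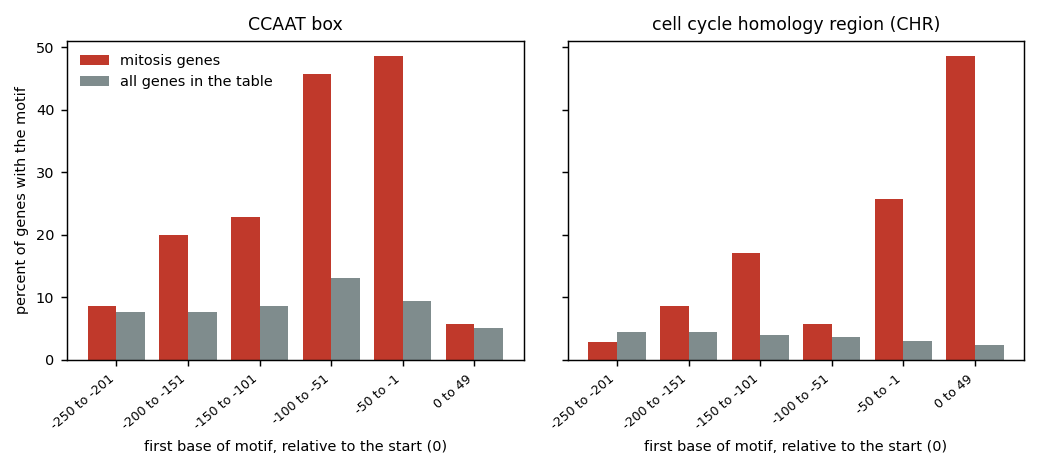
Percentage of genes (y axis) with a CCAAT box (left) or a CHR (right) whose first base lies in each 50-base stretch relative to the transcription start (x axis, bases), for the 35 mitosis genes with a window (red) and all 27025 genes (grey). The CHR bar of the mitosis genes is highest from base 0 to 49 (48.6%) and the CCAAT bars from base -100 to -1 (45.7% and 48.6%).

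Activation raised nearly the whole list. In control cells relative to resting cells, 39 of the 43 genes rose and none fell (edgeR's quasi-likelihood test, Benjamini-Hochberg adjusted p below 0.05 over 12536 genes), where 15.5% of all tested genes rose and 15.8% fell. The log2 fold changes had a median of 3.88, against -0.04 for all tested genes. The summed level of the 43 genes was 7468, 8844 and 9755 CPM in control replicates 1, 4 and 5 and 2252, 1653 and 1649 CPM in resting replicates 1, 4 and 5. In 42 genes all 3 control libraries lay above all 3 resting libraries, a separation that 29.2% of tested genes showed. The 4 genes that did not pass the test were Smc4, Bub3, Ndc80 and Kif23. This fit also draws its estimate of spread from the TEPP-46 libraries. With only control and resting libraries fitted, 41 of the 43 genes rose, as did 2906 of 12153 tested genes. Smc4 and Bub3 passed in 0 of the 19 other settings, Ndc80 in 7 and Kif23 in 5. Without resting replicate 1, which stood apart, 37 genes rose (background 12.4%).

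In TEPP-46 cells relative to control cells, 3 of the 43 genes fell, Anln, Prc1 and Cenpf, and none rose. The background was 6.43% of tested genes falling and 9.72% rising. The median log2 fold change of the 43 genes was -1.55, against 0.04 for all tested genes, and 30 genes had an unadjusted p below 0.05, as did 4235 of the 12536 tested genes. In 29 genes all 3 TEPP-46 libraries lay below all 3 control libraries, against 20.0% of tested genes, and in the other 14 the groups overlapped. The summed level was 6664, 2463 and 1937 CPM in TEPP-46 replicates 1, 4 and 5, against 7468 to 9755 CPM in control libraries. Smc4 alone gave much of what remained, and without it the sums were 6147, 1156 and 1072 CPM in TEPP-46 replicates 1, 4 and 5, 6924 to 9089 CPM in control libraries and 885 to 935 CPM in resting libraries.

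The 3 TEPP-46 libraries did not share a level. Replicate 1 had a median of 77.9% of the control mean over the 43 genes, with 30 genes below every control library and Birc5 and Nuf2 above every control library. Replicate 4 had a median of 10.8% and replicate 5 of 10.45%, and in each of these 42 genes lay below every control library, Smc4 being the exception in both. Replicate 1 was the highest of the TEPP-46 libraries for 42 genes, replicate 4 was the lowest for 18 and replicate 5 for 24. On the log2 scale relative to the control mean, the median was -0.35, -3.19 and -3.20 in replicates 1, 4 and 5. The same values for the other 1899 genes that rose on activation were -0.56, -1.19 and -1.17. For all tested genes they were -0.0006, -0.03 and 0.04. The quartiles of all tested genes were -0.94 and 0.75 in replicate 4 and -0.65 and 0.70 in replicate 5. Those of the 43 genes were -3.95 and -2.53 in replicate 4 and -3.52 and -2.73 in replicate 5. How many of all tested genes lay below every control library in a single TEPP-46 library was not determined.

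How many genes passed the test followed the libraries in the fit. Without TEPP-46 replicate 1, 42 of the 43 genes fell relative to control cells, where 16.4% of tested genes fell. The exception was Smc4, with a log2 fold change of 0.80 and an adjusted p of 0.0606 (edgeR). The other 42 had log2 fold changes between -0.77 (Bub3) and -5.39 (Bub1), with a median of -3.27 over all 43. Without TEPP-46 replicate 4, 1 gene fell (background 5.67%), and without TEPP-46 replicate 5 none did (background 1.67%). None of the 43 fell without any 1 of the 3 control libraries or without resting replicate 4, and 1 fell without resting replicate 1 or 5. Of all tested genes, 225 of 12982, 175 of 12935 and 137 of 12956 fell without control replicates 1, 4 and 5. For resting replicates 1, 4 and 5 these were 954 of 12936, 594 of 12932 and 606 of 12910. The fold change of edgeR compares mean levels, in which replicate 1 weighs most. With limma-voom, which averages log2 values, 32 genes fell (background 8.91%) and the median log2 fold change was -2.23. With DESeq2, 15 genes fell (background 9.49%) and 8 of the 43 received no adjusted p. Scaled by total counts alone, which shifts the median of all genes by -0.131 on the log2 scale, 11 of the 43 fell, as did 1183 of 12536 tested genes. Of all calls between TEPP-46 and control cells, 43.9% were then higher, against 60.2% with TMM.

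**Figure D2:**
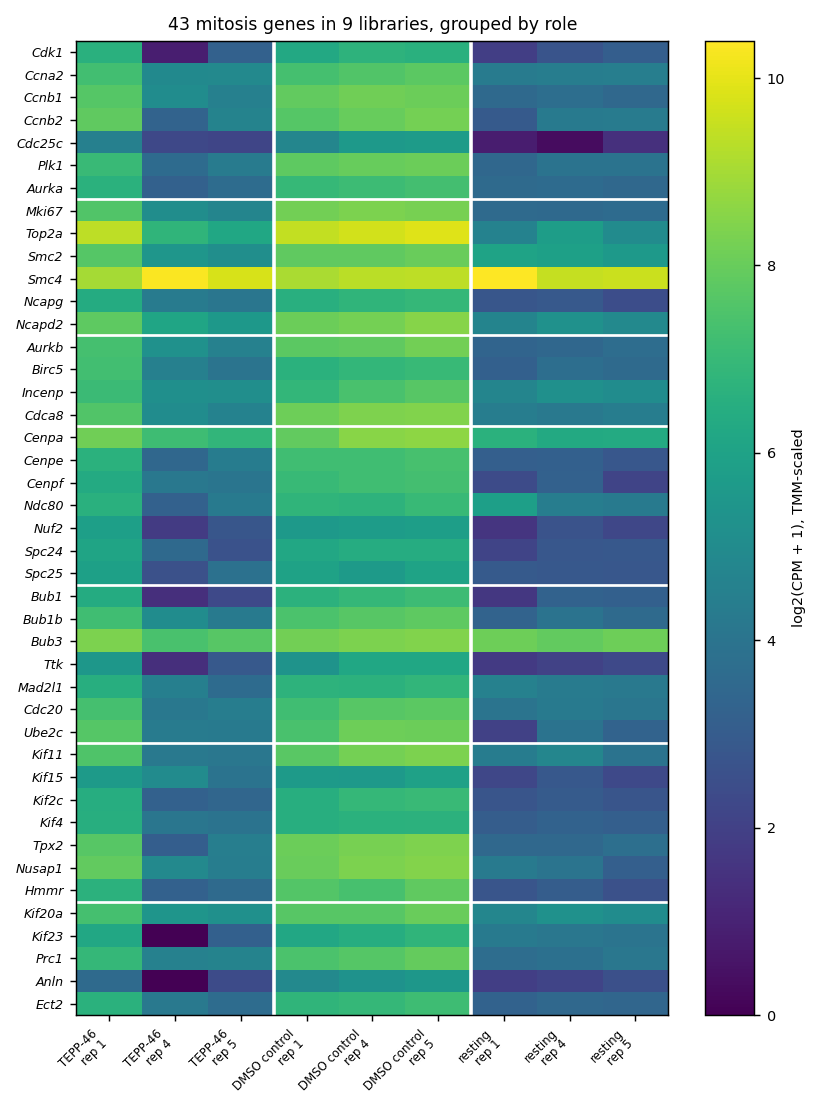
Level of each of the 43 genes (rows, ordered by role) in each of the 9 libraries (columns, TEPP-46, DMSO control and resting) as log2(CPM + 1), on a colour scale from 0 (dark blue) to above 10 (yellow). TEPP-46 replicate 1 resembles the control columns in shade, TEPP-46 replicates 4 and 5 lie nearer to the resting columns, and Smc4 and Bub3 are bright in every column.

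Other features of the libraries also differed between the TEPP-46 libraries. Malat1, a nuclear RNA, had 2521, 12240 and 12770 CPM in TEPP-46 replicates 1, 4 and 5, 2058 to 4103 CPM in control and 4354 to 8349 CPM in resting libraries. Cytosolic ribosomal protein genes summed to 39450, 9604 and 19730 CPM in TEPP-46 replicates 1, 4 and 5, 24880 to 32240 CPM in control and 17750 to 24720 CPM in resting libraries. The 3 platelet markers (Pf4, Ppbp and Itga2b) summed to 16.4, 268 and 82.8 CPM in TEPP-46 replicates 1, 4 and 5 and to at most 4.89 CPM in every other library. In these 3 sets TEPP-46 replicates 4 and 5 lay on the same side of replicate 1. The same was true of the sums of the granulocyte precursor, NK cell and myeloid markers below, but not of the B cell sum. The 4 markers of granulocyte precursors (Mpo, Elane, Prtn3 and Ctsg) were high in TEPP-46 replicate 4 alone of the activated libraries, with 1.64, 139 and 3.87 CPM in TEPP-46 replicates 1, 4 and 5, 0 to 0.977 CPM in control and 106 to 155 CPM in resting libraries. The 6 B cell markers summed to 867, 1176 and 722 CPM in TEPP-46 replicates 1, 4 and 5, 229 to 254 CPM in control and 2513 to 3941 CPM in resting libraries, with replicate 1 between replicates 5 and 4. The 4 NK cell markers (Ncr1, Klrb1c, Klrk1 and Gzma) summed to 54.2, 10.9 and 23.5 CPM in TEPP-46 replicates 1, 4 and 5. The sums were 1.67 to 2.51 CPM in control and 9.21 to 21.1 CPM in resting libraries. Klrk1 gave most of the sum in TEPP-46 libraries, with 53.95, 10.88 and 16.43 CPM in replicates 1, 4 and 5. Klrb1c had 0 CPM in every TEPP-46 library and 2.80 to 10.56 CPM in resting libraries. Gzma was highest in TEPP-46 replicate 5, at 6.77 CPM. The 5 myeloid markers summed to 19.4, 56.1 and 28.0 CPM in TEPP-46 replicates 1, 4 and 5, 19.6 to 32.2 CPM in control and 40.5 to 56.0 CPM in resting libraries. The part of these differences in the levels of the mitosis genes was not tested.

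Among the kinases and cyclins that start mitosis, all 7 genes rose on activation, with log2 fold changes from 3.25 (Ccna2) to 5.40 (Cdc25c), and none passed the test between TEPP-46 and control cells. Cdk1 (ENSMUSG00000019942.12, chr10:69335146-69352938), the kinase of mitotic entry, had 95.85, 0.837 and 8.38 CPM in TEPP-46 replicates 1, 4 and 5, 76.9, 103.5 and 96.9 CPM in control replicates and 2.80, 5.52 and 7.54 CPM in resting replicates. TEPP-46 replicate 1 lay inside the control range, replicate 5 just above the resting libraries and replicate 4 below them. The log2 fold change was 4.13 ± 1.11 (SE, adjusted p = 0.0183, edgeR) in control relative to resting cells and -1.38 ± 0.97 (adjusted p = 0.338, edgeR) in TEPP-46 relative to control cells. Ccnb1, its B-type cyclin partner, had 199, 32.6 and 21.9 CPM in TEPP-46, 235, 279.9 and 264 CPM in control and 10.8, 12.4 and 10.3 CPM in resting replicates 1, 4 and 5. All TEPP-46 libraries lay below the controls and above the resting libraries, and the adjusted p was 0.109 against control and 0.0282 against resting cells (edgeR).

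Ccnb2, the other B-type cyclin of the list, differed more between the TEPP-46 libraries, with 231, 8.79 and 24.2 CPM in replicates 1, 4 and 5, against 202.5, 252 and 299 CPM in control replicates 1, 4 and 5. The groups overlapped through replicate 1. Ccna2, the cyclin of S phase and early mitosis, had 149.8, 29.3 and 28.35 CPM in TEPP-46 and 160.0 to 216 CPM in control libraries, and its exons overlap those of Exosc9 on the other strand. Cdc25c, the phosphatase that removes the inhibitory phosphates of Cdk1, was nearly silent in resting cells at 0.263 to 1.72 CPM and had 26.4 to 51.0 CPM in control cells, the largest rise of the list (5.40 ± 0.83, adjusted p = 0.00156, edgeR). In TEPP-46 replicates 1, 4 and 5 it had 21.9, 3.77 and 3.54 CPM, all below the controls and all above the resting libraries. Plk1, the polo kinase of centrosomes and kinetochores, had 133, 11.3 and 19.0 CPM in TEPP-46, 222, 255 and 267 CPM in control and 10.2, 14.7 and 14.4 CPM in resting replicates 1, 4 and 5. Its TEPP-46 libraries lay below the controls, and replicate 4 lay within the resting range. Plk1 and Aurka, the kinase of the spindle poles, had log2 fold changes of -2.17 ± 0.71 (adjusted p = 0.0600) and -1.79 ± 0.71 (adjusted p = 0.106) in TEPP-46 relative to control cells (edgeR).

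**Figure D3:**
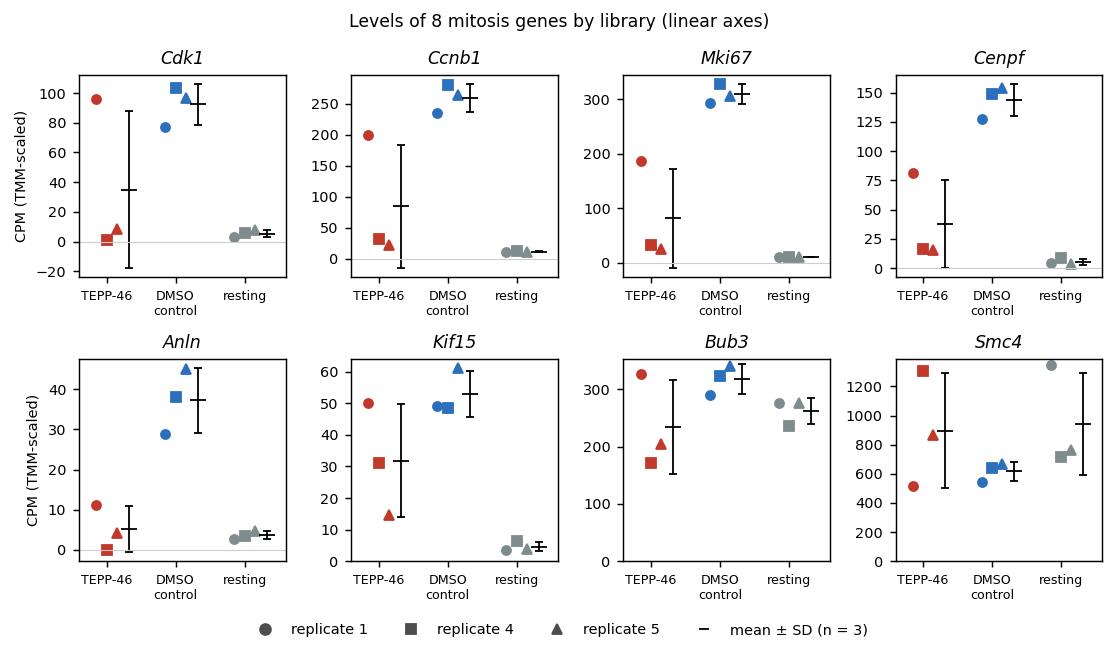
CPM (y axes, linear) of 8 mitosis genes in the TEPP-46, DMSO control and resting libraries, with replicates 1, 4 and 5 as circle, square and triangle and the mean ± SD (n = 3) beside each group. TEPP-46 replicate 1 lies within or near the control points for Cdk1, Ccnb1 and Kif15, all TEPP-46 points lie below the controls for Mki67, Cenpf and Anln, and for Bub3 and Smc4 the resting points are at 235 CPM or more.

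Of the 6 genes for chromosome structure, 5 rose on activation and Smc4 did not. Mki67, whose product coats mitotic chromosomes and serves as a marker of proliferation, had 187, 33.5 and 25.45 CPM in TEPP-46, 294, 329 and 307 CPM in control and 11.02, 10.78 and 11.42 CPM in resting replicates 1, 4 and 5. The 3 groups did not overlap. Its log2 fold change was 4.80 ± 0.70 in control relative to resting cells (adjusted p = 0.00122) and -1.91 ± 0.61 in TEPP-46 relative to control cells (adjusted p = 0.0552, edgeR). Top2a, the topoisomerase that untangles sister DNA, had the highest CPM in control cells of the genes that rose, before any correction for length, with 657.5, 111 and 71.5 CPM in TEPP-46, 691, 827 and 949 CPM in control and 23.4, 54.4 and 31.0 CPM in resting replicates 1, 4 and 5. TEPP-46 libraries lay below the controls and above the resting libraries. Ncapd2, a subunit of condensin I, had 227, 68.6 and 45.4 CPM in TEPP-46, 263.5, 296 and 361 CPM in control and 24.8, 37.6 and 28.4 CPM in resting replicates 1, 4 and 5, again in 3 separate ranges. Ncapg, another subunit of condensin I, and Ncapd2 had log2 fold changes of -1.44 ± 0.53 (adjusted p = 0.0871) and -1.43 ± 0.49 (adjusted p = 0.0714) in TEPP-46 relative to control cells (edgeR).

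Smc2 and Smc4 encode the paired ATPase arms of both condensins, but of the pair Smc2 rose on activation and Smc4 did not pass the test. Smc4 (ENSMUSG00000034349.14, chr3:69004738-69034623) had 517, 1307 and 864 CPM in TEPP-46, 544, 642 and 666 CPM in control and 1349, 718 and 764 CPM in resting replicates 1, 4 and 5. Every resting library lay above every control library, while the TEPP-46 libraries lay on both sides of the controls. Neither difference passed the test, with -0.61 ± 0.35 (adjusted p = 0.205) in control relative to resting cells and 0.54 ± 0.35 (adjusted p = 0.299) in TEPP-46 relative to control cells (edgeR). Smc2 had 199.9, 43.1 and 34.5 CPM in TEPP-46, 234, 233 and 259 CPM in control and 65.3, 58.4 and 48.9 CPM in resting replicates 1, 4 and 5. Smc2 rose on activation (2.07 ± 0.55, adjusted p = 0.0179, edgeR), and TEPP-46 replicates 4 and 5 lay below every resting library.

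The chromosomal passenger complex corrects faulty attachments at the centromere and later moves to the midzone. All 4 of its genes rose on activation, by 2.39 ± 0.50 (Incenp, the scaffold) to 4.56 ± 0.65 (Aurkb, the kinase) on the log2 scale, and none passed the test between TEPP-46 and control cells. Aurkb had 158, 37.2 and 22.55 CPM in TEPP-46, 221, 232 and 291 CPM in control and 9.21, 9.99 and 12.3 CPM in resting replicates 1, 4 and 5. The groups did not overlap (-1.76 ± 0.57, adjusted p = 0.0591, in TEPP-46 relative to control cells, edgeR). Birc5, which encodes survivin, had 152, 22.2 and 15.1 CPM in TEPP-46, 99.7, 117 and 129 CPM in control and 8.21, 12.6 and 10.99 CPM in resting replicates 1, 4 and 5. TEPP-46 replicate 1 was its highest library of all 9, so the groups overlapped (-0.86 ± 0.67, adjusted p = 0.392, edgeR). Cdca8, which encodes borealin, had 192, 32.2 and 23.2 CPM in TEPP-46, 277, 336 and 346 CPM in control and 20.4, 17.6 and 20.25 CPM in resting replicates 1, 4 and 5. Its groups did not overlap (-1.95 ± 0.64, adjusted p = 0.0609, edgeR), while those of Incenp, with 137 CPM in TEPP-46 replicate 1 and 119 CPM in control replicate 1, did.

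At the kinetochore, 6 of 7 genes rose on activation, and Cenpf also fell in TEPP-46 relative to control cells. Cenpf (ENSMUSG00000026605.14, chr1:189640606-189688086), a large protein of the outer kinetochore, had 81.1, 16.7 and 15.5 CPM in TEPP-46, 128, 149 and 154 CPM in control and 4.21, 8.41 and 3.45 CPM in resting replicates 1, 4 and 5. Each TEPP-46 library lay below every control and above every resting library. The log2 fold change was -1.91 ± 0.57 in TEPP-46 relative to control cells (adjusted p = 0.0462) and 2.85 ± 0.64 relative to resting cells (adjusted p = 0.0212, edgeR). The call against control cells held in 8 of the 19 other settings, and over all of these the adjusted p of Cenpf ran from 0.000235 to 0.138. Cenpa, the histone H3 variant that marks centromeres, kept a larger share in the low TEPP-46 libraries, with 286, 142 and 115 CPM in TEPP-46, 240.3, 376.5 and 393 CPM in control and 97.75, 78.4 and 79.9 CPM in resting replicates 1, 4 and 5. TEPP-46 replicate 1 overlapped the controls, and all TEPP-46 libraries lay above the resting libraries. Cenpe, a motor of the kinetochore, had all TEPP-46 libraries below the controls (-1.80 ± 0.63, adjusted p = 0.0748, edgeR).

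Ndc80, Nuf2, Spc24 and Spc25 encode the rod that holds microtubule ends. Nuf2, Spc24 and Spc25 rose on activation by 3.21 to 3.97 on the log2 scale, and Ndc80 did not pass the test (1.81 ± 0.73, adjusted p = 0.0844, edgeR). Ndc80 had 95.6, 8.37 and 18.4 CPM in TEPP-46, 109.9, 106 and 126.5 CPM in control and 58.1, 20.25 and 18.7 CPM in resting replicates 1, 4 and 5. Its control libraries lay above all resting libraries, of which replicate 1 was the highest. TEPP-46 replicates 4 and 5 of Ndc80 lay below every resting library. Nuf2 had 58.1, 2.51 and 5.80 CPM in TEPP-46 and 47.9, 52.1 and 55.7 CPM in control replicates 1, 4 and 5, so TEPP-46 replicate 1 lay above every control. None of these 4 genes passed the test between TEPP-46 and control cells, with log2 fold changes from -1.17 (Spc25) to -1.55 (Spc24).

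The spindle checkpoint holds the APC/C back until every kinetochore is attached. Of the 7 genes of the checkpoint and the APC/C, 6 rose on activation and none passed the test between TEPP-46 and control cells. Bub3 was the exception on activation. Bub3 (ENSMUSG00000066979.6, chr7:131560222-131571895), a partner of the checkpoint kinases, had 326, 171 and 204 CPM in TEPP-46, 289, 323 and 341 CPM in control and 275, 235 and 276 CPM in resting replicates 1, 4 and 5. The control libraries lay above the resting libraries by a small margin (0.28 ± 0.25, adjusted p = 0.416, edgeR), and TEPP-46 replicates 4 and 5 lay below both. Bub1, a kinase of the checkpoint, had 83.5, 1.67 and 3.87 CPM in TEPP-46, 101, 120.5 and 140.1 CPM in control and 2.20, 8.68 and 8.19 CPM in resting replicates 1, 4 and 5. Without TEPP-46 replicate 1 it had the lowest log2 fold change of the list relative to control cells, -5.39.

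Ttk, the kinase that starts the checkpoint signal, had 43.8, 1.67 and 6.44 CPM in TEPP-46, 39.8, 72.2 and 73.0 CPM in control and 2.404, 3.16 and 3.88 CPM in resting replicates 1, 4 and 5. The TEPP-46 and control libraries overlapped through replicate 1 of each (-1.80 ± 0.78, adjusted p = 0.136, edgeR). Bub1b, which encodes BubR1, and Mad2l1, which encodes Mad2, had all TEPP-46 libraries below the controls, with log2 fold changes of -1.62 ± 0.60 (adjusted p = 0.0906) and -1.37 ± 0.57 (adjusted p = 0.121, edgeR). Cdc20, the activator of the APC/C, had 159, 16.7 and 20.0 CPM in TEPP-46 and 148, 206 and 219 CPM in control replicates 1, 4 and 5. Ube2c, the ubiquitin-conjugating enzyme of the APC/C, had 201, 18.8 and 18.7 CPM in TEPP-46 and 168, 276 and 269 CPM in control replicates 1, 4 and 5. Both overlapped the controls through TEPP-46 replicate 1, and both overlap a gene on the other strand, Elovl1 for Cdc20 and Tnnc2 for Ube2c.

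All 7 genes of spindle motors and organisers rose on activation, by 3.53 ± 0.45 (Kif15) to 5.04 ± 0.87 (Hmmr) on the log2 scale, and none passed the test between TEPP-46 and control cells. Kif11, the motor that pushes the spindle poles apart, had 185, 17.6 and 16.4 CPM in TEPP-46, 212, 302 and 326 CPM in control and 19.4, 26.6 and 14.4 CPM in resting replicates 1, 4 and 5. TEPP-46 replicates 4 and 5 lay within the resting range. Kif15, which shares that task with Kif11, had 50.1, 31.0 and 14.5 CPM in TEPP-46, 49.1, 48.5 and 61.25 CPM in control and 3.61, 6.31 and 3.88 CPM in resting replicates 1, 4 and 5. Its 3 TEPP-46 libraries stood well above the resting libraries, and replicate 4 kept 58.5% of the control mean. Kif15 was higher in TEPP-46 than in resting cells by 2.80 ± 0.45 (adjusted p = 0.00562, edgeR), a call that held in all 19 other settings.

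Tpx2, which activates Aurka on spindle microtubules, had 206.5, 7.53 and 20.6 CPM in TEPP-46, 266.5, 303 and 332 CPM in control and 10.4, 10.5 and 12.9 CPM in resting replicates 1, 4 and 5. Hmmr, which binds spindle microtubules, had 102, 8.37 and 10.95 CPM in TEPP-46, 193, 165 and 232 CPM in control and 5.61, 7.36 and 4.96 CPM in resting replicates 1, 4 and 5. In both genes all TEPP-46 libraries lay below the controls, with log2 fold changes of -1.93 ± 0.85 (adjusted p = 0.141) for Tpx2 and -2.26 ± 0.75 (adjusted p = 0.0630) for Hmmr (edgeR). Nusap1, a microtubule bundler and the gene of this group with the highest CPM in control cells, had 241, 28.9 and 20.3 CPM in TEPP-46, 255.5, 324 and 351 CPM in control and 17.8, 15.0 and 7.75 CPM in resting replicates 1, 4 and 5. Its 3 groups did not overlap (-1.67 ± 0.76, adjusted p = 0.148, in TEPP-46 relative to control cells, edgeR). Kif2c, a motor that shortens microtubules, also had all TEPP-46 libraries below the controls and above the resting libraries. Kif4, a motor on chromosome arms, had 90.92, 15.9 and 14.5 CPM in TEPP-46 and 90.86, 99.9 and 103 CPM in control replicates 1, 4 and 5. The groups overlapped through replicate 1 of each. It was higher in TEPP-46 than in resting cells (2.35 ± 0.62, adjusted p = 0.0406, edgeR).

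Of the 5 genes of the midzone and cytokinesis, 4 rose on activation, and Anln and Prc1 fell in TEPP-46 relative to control cells (background 6.43%). All 5 had every TEPP-46 library below every control library (background 20.0%), Kif23 by a margin of less than 1 CPM, and no test set this group against the other role groups. Anln (ENSMUSG00000036777.7, chr9:22332012-22389188), which encodes anillin, the scaffold of the contractile ring, had 11.2, 0 and 4.19 CPM in TEPP-46, 28.8, 38.0 and 44.9 CPM in control and 2.80, 3.42 and 4.74 CPM in resting replicates 1, 4 and 5. A count of 0 in TEPP-46 replicate 4 allows up to 1.25 CPM, the worth of 3 counts there, and replicate 5 lay within the resting range. Anln fell by 2.78 ± 0.75 on the log2 scale in TEPP-46 relative to control cells (adjusted p = 0.0324, edgeR). Its call held in 12 of 19 other settings, with adjusted p from 0.00114 to 0.115. At 30.1% of the control mean, Anln was also the lowest of the 43 genes in TEPP-46 replicate 1.

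Prc1 (ENSMUSG00000038943.16, chr7:80294450-80316259), which bundles microtubules at the midzone, had 119, 22.6 and 24.2 CPM in TEPP-46, 174, 200.3 and 246.5 CPM in control and 12.2, 13.15 and 16.6 CPM in resting replicates 1, 4 and 5. The 3 groups did not overlap. Prc1 fell by 1.89 ± 0.55 on the log2 scale in TEPP-46 relative to control cells (adjusted p = 0.0412, edgeR), a call that held in 10 of 19 other settings with adjusted p from 6.9e-05 to 0.13, and its exons overlap those of Rccd1 on the other strand. Kif23, a motor of the centralspindlin complex, had 74.5, 0 and 8.05 CPM in TEPP-46, 74.99, 88.0 and 111 CPM in control and 17.8, 16.6 and 14.9 CPM in resting replicates 1, 4 and 5. TEPP-46 replicates 4 and 5 lay below every resting library. Its fold changes did not pass the test on activation (2.47 ± 1.003, adjusted p = 0.0847) or with TEPP-46 (-1.70 ± 0.97, adjusted p = 0.243, edgeR). Kif20a, which carries the passenger complex to the midzone, had 159, 42.25 and 36.4 CPM in TEPP-46, 204, 209 and 261 CPM in control and 26.6, 37.9 and 32.5 CPM in resting replicates 1, 4 and 5. Kif20a and Ect2, which switches on RhoA at the division plane, had log2 fold changes of -1.495 ± 0.48 (adjusted p = 0.0580) and -1.52 ± 0.62 (adjusted p = 0.116) in TEPP-46 relative to control cells (edgeR).

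**Figure D4:**
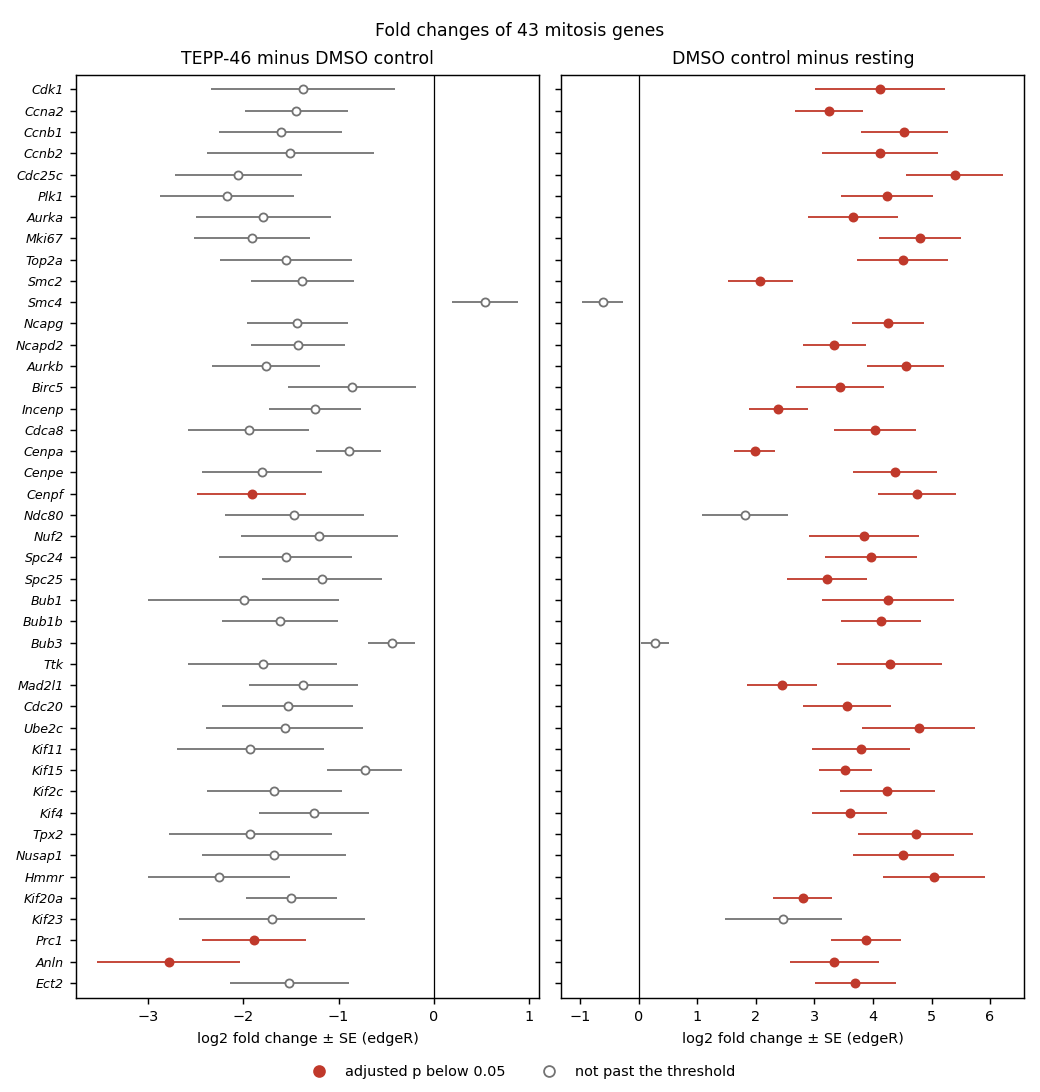
Log2 fold change ± SE (x axes, edgeR) of each of the 43 genes (rows) in TEPP-46 minus DMSO control (left) and DMSO control minus resting (right), filled red where the adjusted p is below 0.05. On the left Anln, Prc1 and Cenpf are filled and all points but Smc4 lie below 0, and on the right 39 points are filled and all but Smc4 lie above 0.

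By role, the median level in TEPP-46 replicate 1 ran from 70.9% of the control mean (midzone and cytokinesis) to 83.8% (kinetochore). In TEPP-46 replicate 4 it ran from 6.03% (entry kinases and cyclins) to 17.6% (chromatin and condensation), and in replicate 5 from 6.87% (spindle) to 14.4% (chromatin and condensation). Resting cells had 5.27% (spindle) to 9.81% (midzone and cytokinesis) of the control mean. Every role group therefore had its TEPP-46 replicates 4 and 5 far below replicate 1.

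**Figure D5:**
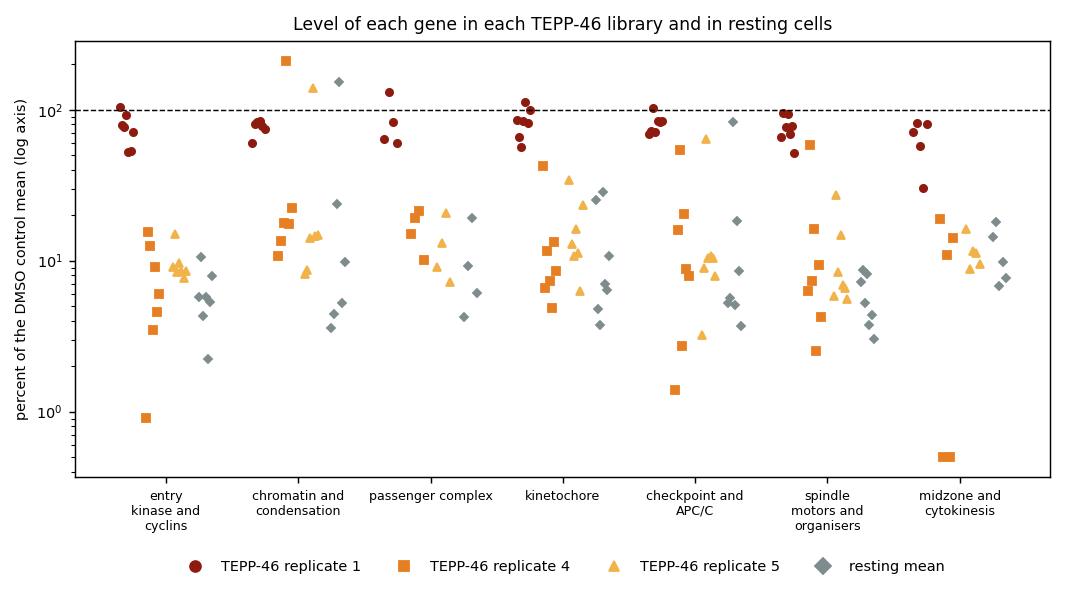
Level of each gene as a percentage of the DMSO control mean (y axis, log scale; the dashed line is 100%) by role group (x axis), in TEPP-46 replicates 1, 4 and 5 and as the mean of the resting libraries. Kif23 and Anln, with no counts in TEPP-46 replicate 4, are drawn at the bottom of the plot, and replicate 1 (dark red) lies between 30.1% and 131.9% while replicates 4 and 5 have medians of 10.8% and 10.45%.

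Relative to resting cells, TEPP-46 cells had 13 of the 43 genes higher and none lower, where 6.37% of tested genes were higher and 3.92% lower. The median log2 fold change was 2.35, against 0.02 for all tested genes. In 22 genes all 3 TEPP-46 libraries lay above all 3 resting libraries, against 12.6% of tested genes, and in 21 the groups overlapped. The 13 genes were Ccnb1, Cdc25c, Mki67, Top2a, Ncapg, Ncapd2, Aurkb, Birc5, Cenpe, Cenpf, Bub1b, Kif15 and Kif4, with log2 fold changes from 1.91 (Ncapd2) to 3.34 (Cdc25c). No gene of the midzone and cytokinesis group was among them. In that group Prc1 (adjusted p = 0.0512) and Ect2 (adjusted p = 0.0627, edgeR) had every TEPP-46 library above every resting library. This comparison shares its TEPP-46 libraries with the comparison against control cells.

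The position relative to resting cells also differed by library. TEPP-46 replicate 1 lay above every resting library in 42 genes, replicate 4 in 24 and replicate 5 in 31. In replicate 4, 11 genes lay below every resting library, namely Cdk1, Aurka, Smc2, Ndc80, Spc25, Bub1, Bub3, Ttk, Tpx2, Kif23 and Anln. In replicate 5 these were Smc2, Ndc80, Bub3, Mad2l1 and Kif23. In replicate 4, where 3 counts are worth 1.25 CPM, Cdk1 had 0.837 CPM, Bub1 and Ttk 1.67 CPM, and Kif23 and Anln 0. The shares of all tested genes in these positions were not determined, so these counts have no background. Without TEPP-46 replicate 1, 11 genes were higher than in resting cells (background 8.33%) and the median log2 fold change was 0.58. Without TEPP-46 replicate 4, 31 genes were higher (background 8.09%), and without TEPP-46 replicate 5, 23 were (background 4.97%). Without resting replicate 5, 1 gene was higher (background 2.09%). There were 2 without resting replicate 1 (581 of 12936 tested genes) and 2 without resting replicate 4 (273 of 12932). Without control replicate 1, 4 or 5, which the fit uses to estimate the spread, 7, 5 and 5 genes were higher. Of all tested genes, 518 of 12982, 473 of 12935 and 456 of 12956 were higher in these settings. With DESeq2, 21 genes were higher (background 8.14%), and with limma-voom 2 were, as were 627 of 12536 tested genes.

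Set per kilobase of exon, the levels differed widely between the genes. In control cells Ccnb2 came first at 164 CPM per kilobase, ahead of Smc4 (118.5), Plk1 (113), Cdc20 (102), Ube2c (91.4) and Top2a (91.2), and Kif15 (4.80) and Anln (4.11) came last. In resting cells Smc4 (181 CPM per kilobase), Bub3 (37.4) and Cenpa (14.6) came first, and Cdc25c was last at 0.189. In TEPP-46 cells the means were 172 CPM per kilobase for Smc4, 57.4 for Ccnb2 and 0.567 for Anln. The genes lie on 15 chromosomes, with 7 on chromosome 2 and 6 on chromosome 9. The exons of 13 of them overlap those of another gene, and Ccnb1, Ccnb2 and Kif4 have named pseudogenes, so their counts are less certain.

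A further list of 102 mitosis genes that are not among the 43 had medians in the same directions but nearer to 0. Of these, 61 rose and 4 fell in control relative to resting cells (background 15.5% rising and 15.8% falling), with a median log2 fold change of 1.80. In TEPP-46 relative to control cells 11 fell and 1 rose (background 6.43% falling and 9.72% rising), with a median of -1.04. In TEPP-46 relative to resting cells 16 were higher and none lower (background 6.37% and 3.92%), with a median of 0.57. The 4 that fell on activation were Stag1, Zw10, Numa1 and Rbl2. Stag1, a cohesin subunit, also rose in TEPP-46 cells, to 92.8, 77.0 and 87.0 CPM in TEPP-46 replicates 1, 4 and 5, against 54.5, 54.3 and 37.4 CPM in control replicates 1, 4 and 5 (0.81 ± 0.21, adjusted p = 0.0297, edgeR).

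The 11 that fell with TEPP-46 were Cit, Zwilch, Ube2s, Nsl1, Cenpu, Kif20b, Lin54, Cdc25a, Cdc16, Ncapd3 and Ckap5. Cit, which encodes citron kinase of the cleavage furrow, had 83.25, 23.4 and 29.6 CPM in TEPP-46, 159, 212.5 and 222 CPM in control and 3.61, 6.05 and 7.54 CPM in resting replicates 1, 4 and 5. The 3 groups did not overlap (-2.11 ± 0.44, adjusted p = 0.0136, in TEPP-46 relative to control cells, edgeR). Zwilch, which with Zw10 forms part of a kinetochore complex, had 10.1, 0.418 and 0.644 CPM in TEPP-46, 20.8, 25.6 and 28.1 CPM in control and 2.20, 3.68 and 2.37 CPM in resting replicates 1, 4 and 5. Its TEPP-46 replicates 4 and 5 lay below every resting library. Ube2s, which extends ubiquitin chains for the APC/C, fell by 2.59 ± 0.70 on the log2 scale (adjusted p = 0.0332, edgeR). Without TEPP-46 replicate 1, 69 of the 102 genes fell relative to control cells (background 16.4%), and without TEPP-46 replicate 5 none did (background 1.67%).

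That list held 12 transcription regulators, among them FoxM1, B-Myb and subunits of the DREAM and MuvB complexes but not of NF-Y. Of the 12, 6 rose and 1 fell on activation (background 15.5% rising and 15.8% falling). In TEPP-46 relative to control cells 1 of the 12, Lin54, fell (background 6.43%), and no test set these regulators against other genes. Foxm1 had 22.7, 25.1 and 1.93 CPM in TEPP-46, 38.1, 45.65 and 42.4 CPM in control and 2.20, 3.68 and 1.72 CPM in resting replicates 1, 4 and 5. TEPP-46 replicates 1 and 4 lay close together below the controls, and replicate 5 lay within the resting range. Foxm1 rose on activation (4.05 ± 0.73, adjusted p = 0.00292) and did not pass the test between TEPP-46 and control cells (-1.35 ± 0.63, adjusted p = 0.159, edgeR). Mybl2, which encodes B-Myb, had 39.2, 9.62 and 4.51 CPM in TEPP-46, 61.8, 60.5 and 53.5 CPM in control and 1.60, 3.94 and 5.82 CPM in resting replicates 1, 4 and 5. It rose on activation (3.95 ± 0.73, adjusted p = 0.00341) and gave -1.70 ± 0.65 (adjusted p = 0.0942, edgeR) in TEPP-46 relative to control cells. Lin54, the subunit of the MuvB core that binds the CHR, had 52.9, 28.45 and 22.2 CPM in TEPP-46 and 76.45, 80.3 and 83.1 CPM in control replicates 1, 4 and 5, and fell by 1.21 ± 0.31 on the log2 scale (adjusted p = 0.0274, edgeR). The other MuvB subunits of the list did not pass the test in TEPP-46 relative to control cells, with log2 fold changes of -0.74 ± 0.54 for Lin9, -0.02 ± 0.20 for Lin37 and 0.05 ± 0.30 for Lin52. Rbl2, which encodes the DREAM pocket protein p130, had 146.8, 144 and 204 CPM in TEPP-46, 99.4, 113.5 and 123 CPM in control and 183, 186 and 157.5 CPM in resting replicates 1, 4 and 5. All its TEPP-46 libraries lay above the controls, and the difference did not pass the test (0.56 ± 0.20, adjusted p = 0.0840, edgeR). For Rbl1, the related pocket protein p107, the log2 fold change was -0.09 ± 0.21.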

How the data were processed

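The 43 genes, their roles, the further list of 102 mitosis genes and the marker lists were chosen with earlier results of these data known. RNA of 9 libraries was prepared with a low-input kit, per the labels' protocols. The authors deposited unnormalized whole-number counts per gene, with all libraries in 1 table. The submitters' processing notes name the build GRCm38 and the tool DESeq2. The annotation release, aligner, counting program and strand setting (not given in the sources used here) could each change which reads a gene received, and a gene cannot be told from an overlapping antisense partner. Of 47937 identifiers, 47224 were matched to a symbol of GENCODE M21 (GRCm38) by Ensembl number without version, and gene coordinates come from that annotation.

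The libraries of the 3 groups entered a single edgeR 4.0.16 fit in R 4.3.3 (filterByExpr by group, minimum count 10, minimum total 15; TMM; glmQLFit and glmQLFTest; two-sided). Of 23436 genes with a count, 12536 passed the filter, among them all 43. Adjusted p-values are Benjamini-Hochberg values over these 12536 genes, with a threshold of 0.05. The standard error is the size of the log2 fold change divided by the square root of its F statistic. The common dispersion was 0.109, with 6 residual degrees of freedom. At 2397304 to 5030643 counts per library, 3 counts are worth 0.596 to 1.25 CPM, a floor that covers counting error only. The fit was tested on simulated data with the same dispersion in every group. That test does not cover the wider spread of the TEPP-46 libraries. Full values are given for genes that lead their role group by mean level or differ from it, and ranges or fold changes for the others. The result of 1 marker list is not reported here. Promoter windows are RefSeq's on GRCm38.p6. The replicate numbers were not found to pair the libraries, which does not exclude shared animals or days. Alternatives tried were other scaling factors, DESeq2 1.42.0, limma-voom (limma 3.58.1), other filters, a fit of only the groups compared, a replicate block, thinning to equal totals, leaving out each library, and a shorter promoter window.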

Additional observations from a re-analysis of the deposited data

How the results depend on the processing

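The rise of the mitosis genes in control relative to resting cells was the steadiest count, with 36 to 41 of 43 genes higher and 0 lower when any 1 library was left out. In TEPP-46 relative to control cells, the number of the 43 genes that fell was 0 when only these groups were fitted (572 of 11921 tested genes). It was 5 with upper quartile factors (869 of 12536), 5 after thinning (772 of 11669) and 11 with total counts (1183 of 12536). It was 15 with DESeq2 (1364 of 14375), 30 with no filter on low counts (1127 of 23436) and 32 with limma-voom (1117 of 12536). Leaving out 1 library gave 0 to 42 lower and 0 higher. In TEPP-46 relative to resting cells, the number higher was 1 with only these groups (244 of 11804 tested genes) and 2 with limma-voom (627 of 12536). It was 21 with DESeq2 (1205 of 14805), 35 with no filter (1125 of 23436) and 1 to 31 with 1 library left out, with 0 lower.

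For the further 102 mitosis genes in control relative to resting cells, 2 fell with RLE factors (1859 of 12536 tested genes). With upper quartile factors 2 fell (1914 of 12536) and with total counts 1 (1604 of 12536). Leaving out 1 library gave 46 to 68 higher and 1 to 5 lower. The 46 came without resting replicate 5 (1408 of 12910) and the 68 without TEPP-46 replicate 1 (2496 of 12982). In the latter setting 5 were lower (2597 of 12982). In TEPP-46 relative to control cells, 4 fell with only these groups (572 of 11921 tested genes) and 18 with total counts (1183 of 12536). With DESeq2 23 fell (1364 of 14375), with no filter 35 (1127 of 23436) and with limma-voom 39 (1117 of 12536). None (0) rose with total counts (924 of 12536), with no filter (1421 of 23436) or with only these groups (878 of 11921). Leaving out 1 library gave 0 to 69 lower and 0 to 3 higher. The 69 lower and 3 higher came without TEPP-46 replicate 1, where 2134 of 12982 tested genes were lower and 2274 higher. In TEPP-46 relative to resting cells, 1 was higher with limma-voom (627 of 12536 tested genes) and 1 with only these groups (244 of 11804). After thinning 10 were higher (645 of 11669), with DESeq2 25 (1205 of 14805) and with no filter 39 (1125 of 23436). With DESeq2 1 was lower (886 of 14805). Leaving out 1 library gave 1 to 30 higher and 0 to 6 lower. The 1 came without resting replicate 5 (270 of 12910) and the 30 without TEPP-46 replicate 4 (1043 of 12899). The 6 lower came without TEPP-46 replicate 1 (816 of 12982).

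The log2 fold change turned sign for some of the 43 genes, in each case in TEPP-46 relative to resting cells. With limma-voom it was -0.082 for Ndc80, -1.26 for Kif23 and -0.50 for Anln. With 1 library left out it ran from -0.12 to 3.31 for Cdk1, -0.10 to 2.34 for Aurka, -0.58 to 1.09 for Smc2, -1.26 to 1.08 for Ndc80, -1.13 to 2.81 for Bub1, -0.27 to 1.52 for Mad2l1, -0.25 to 2.35 for Kif11, -1.92 to 1.34 for Kif23 and -0.69 to 1.09 for Anln, the lowest value of each being that without TEPP-46 replicate 1. It ran from -0.49 to 0.019 for Bub3, above 0 without TEPP-46 replicate 4. It ran from -0.45 to 0.27 for Smc4, and was 0.19 without TEPP-46 replicate 1. Beyond leaving out libraries, the cause of these shifts was not tested.

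The replicate number was also fitted as a block. The correlation of same-numbered libraries ran from 0.036 to 0.087 between TEPP-46 and control cells and from -0.026 to 0.089 between control and resting cells. It ran from -0.124 to -0.090 between TEPP-46 and resting cells. These are correlations of deviations from means of 3 libraries, so low values cannot exclude shared animals or days. The libraries that correlated best with their own number were 6, 4 and 0 of 6 in these comparisons. With the replicate block, 2 of the 43 genes were higher in TEPP-46 than in resting cells (456 of 12536 tested genes), against 13 without it. With the block, 4 of the 43 fell relative to control cells (560 of 12536). Of the 102 further genes, 2 were then higher in TEPP-46 than in resting cells (456 of 12536) and 1 fell on activation (1666 of 12536). The shorter promoter window, from 100 bases before the start, held a CHR in 77.1%, a CCAAT box in 65.7% and both in 57.1% of the 35 genes. Low counts limit what can be read of genes near the floor in TEPP-46 replicate 4, the library with the fewest counts.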
